A study of Mus musculus with 8 samples.

Results

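The insulin-like growth factor (IGF) genes described here are the ligands Igf1 and Igf2, the receptor gene Igf1r and the binding protein genes Igfbp1, Igfbp2, Igfbp3, Igfbp4, Igfbp5, Igfbp6 and Igfbp7. They were chosen by the gene name that the array files give each probe, and they are 10 of the 27962 gene names on the array, with 17 probes in all. The oviducts came from CD-1 mice, an outbred stock. Control mice received subcutaneous corn oil on PND1–PND5, and Gen-treated mice received genistein (Gen), a soy isoflavone with estrogenic activity, in the same vehicle at 50 mg/kg/day. Superovulation and mating followed at 6–8 weeks in both groups. Oviducts were taken on GD2, at 48 hr from the hCG injection, and cleared of embryos. The study names 4 independent biological replicates per group, and each has 1 array. For its adult PCR samples it describes both oviducts of 1 mouse as a replicate. The same is taken to hold for the arrays, so the mouse is treated as the replicate below. The tissue was whole oviduct from superovulated females, which limits it as a model of any single cell type or of a natural cycle.

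IGF1 and IGF2 are secreted peptides related to insulin. Both bind the IGF1 receptor, a tyrosine kinase that passes the signal to the IRS adaptors, PI3K and AKT, whereas the IGF2 receptor takes up IGF2 and delivers it to lysosomes. The binding proteins hold IGFs outside the cell, lengthen their lifetime and limit or direct their access to the receptor, and proteases such as PAPP-A cut some of them to set IGFs free. In the oviduct, IGFs are known as factors to which preimplantation embryos respond.

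The array reads each gene through probes of 60 bases. The probes below lie in protein-coding sequence and are shown because each bears on the agreement between probes of a gene. The Igf1 sequence belongs to the second of the probes that separated the groups, and the Igfbp3 and Igfbp4 sequences are the coding probes of genes whose other probe lies elsewhere on the transcript. Positions come from the array design (mouse build mm7), the sequences run 5′ to 3′ along the transcript, and capitals mark cysteine codons (TGT or TGC) in the reading frame.
Igf1, chr10:87471884-87471943, plus strand: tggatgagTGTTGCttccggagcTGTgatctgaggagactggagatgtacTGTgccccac
Igfbp3, chr11:7160474-7161483, minus strand: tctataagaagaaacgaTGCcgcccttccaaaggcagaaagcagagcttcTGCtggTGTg
Igfbp4, chr11:99157316-99157375, plus strand: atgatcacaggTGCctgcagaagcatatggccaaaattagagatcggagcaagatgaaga
The Igf1 probe holds 4 cysteine codons and codes for part of the A domain of the mature peptide, where cysteines form disulfide bonds. The Igfbp3 probe holds 3, in the cysteine-rich C-terminal region, and its span on the chromosome is longer than its 60 bases. The Igfbp4 probe holds 1.

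Signals are given as scaled signals, which are fluorescence intensities brought to a common 75th percentile on all 8 arrays, and a group mean is the mean taken on the log2 scale. Signals of different probes were not set against each other. Testing required a signal well above background in every mouse of 1 group or the other, and 28966 probes met this. The unscaled 75th percentile was 2029–2564 in controls and 2260–3991 after Gen, and 25412–28969 and 29554–31498 probes, respectively, stood well above background. The 4 control arrays were on 1 slide with 1 scan time and the 4 Gen arrays on another, so that slide and treatment cannot be told apart in any comparison below. The oviduct markers Ovgp1, Krt8, Krt18, Foxj1, Acta2 and Myh11 were well above background on all 8 arrays. Several marker lists of other tissue moved with the groups. Those of fat cells and stratified squamous epithelium did not, with 2 of 5 tested genes higher in mean signal in each. Their sums were 9370–29500 and 2570–3440 in the Gen arrays against 12400–34000 and 2930–3860 in controls. Each marker sum here takes in every gene of its list with a probe, tested or not. In the Gen arrays, all 9 tested genes of a list for ovarian granulosa, cumulus and luteal cells had a higher mean signal. The summed signal of the list was 33600–142000 against 4310–29300 in controls. Of the tested genes, 5 had p under 0.01 although none passed the adjusted threshold. At that p, 3.99% of all probes tested were higher, the share to set beside each such count here. All 6 tested oocyte and embryo markers were also higher in mean signal (sum, 4290–26300 against 420–4240), as were all 7 markers of B and plasma cells (sum, 48700–72200 against 13500–31100). Of those 7, 2 had p under 0.01, and Mzb1 was the only marker gene called (limma adjusted p = 0.0274). Of the T and natural killer cell markers 6 of 7 were higher in mean signal, 3 of them at p under 0.01 (sum, 1610–2050 against 1330–1600). So were 6 of 7 macrophage markers, 1 of them at p under 0.01 (sum, 54200–72800 against 46100–71300), and 7 of 7 endothelial markers (sum, 36200–46100 against 35300–36700). Some of these genes were well above background on all 4 Gen arrays but not on all 4 controls. They were Fshr, Lhcgr, Amh (ovarian), Zp2, Bmp15, Mos, Nlrp5 (oocyte), Cd79a (B cells), Cd8a and Cd4 (T cells). Such genes passed the filter only through the Gen arrays, which in part fixed the direction of their differences.

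Igf1 was lower in the oviducts of Gen-treated mice, and it was the only 1 of the 9 tested genes that passed the test. Igf1 mRNA is known to be made largely by stromal and other mesenchymal cells and to respond to estrogen in the reproductive tract. The scaled signal of its brightest probe, at bases 87488982–87489041 of chromosome 10 (mm7), was 12090, 11020, 13050 and 12160 in controls 1–4 and 7601, 7528, 9098 and 7450 in Gen-treated mice 1–4. All 4 Gen arrays were below all 4 control arrays, and the highest Gen array was number 3. The group mean was 12060 in controls and 7891 in Gen-treated mice, a 1.53-fold lower signal (log2 difference, -0.61; SE, 0.11; 95% interval, -0.85 to -0.37; n = 4 per group). In the limma fit the unadjusted p was 0.000341 and the Benjamini-Hochberg adjusted p was 0.0425, and the exact 2-sided permutation test gave 0.0286, the smallest p that 4 against 4 allows.

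At an adjusted p under 0.05, 1 of the 9 tested genes was called, in the lower direction, beside 1.11% of all probes tested in either direction (0.604% higher and 0.504% lower). At the unadjusted p under 0.01 that the study used, 1 of the 9 genes passed, beside 7.38% of all probes (3.99% higher and 3.39% lower). The groups did not overlap for 1 of the 9 genes, beside 12.5% of all probes (6.02% higher and 6.46% lower). Of the 9 genes, 4 had a higher and 5 a lower mean signal in Gen-treated mice, and their median log2 difference was -0.04, beside 0.02 over all probes tested. The members thus had no common direction.

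The other probes of Igf1 give that difference again in part. The coding probe printed above, at chr10:87471884-87471943, had scaled signals of 8906, 9031, 10540 and 9714 in controls and 5813, 6052, 7360 and 5367 in Gen-treated mice. Its groups did not overlap either. The log2 difference was -0.64 (SE, 0.12; 95% interval, -0.92 to -0.36), with an adjusted p of 0.0528, just above the threshold, and an exact permutation p of 0.0286. After the group means were removed, its log2 signal followed that of the first probe over the 8 arrays with r = 0.90 (0.98 with the group difference left in). The remaining probe, designed on a cDNA clone at bases 87420848–87420907, upstream of the others, read 248.5, 261.8, 297.4 and 441.4 in controls and 296.6, 214.7, 284.8 and 207.0 in Gen-treated mice. These groups overlapped, the log2 difference was -0.30 (SE, 0.21; adjusted p = 0.465), and its correlation with the other probes, group means removed, was 0.39 and 0.46. Whether that clone and the RefSeq transcripts come from the same mRNA was not tested.

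The array carries 10 copies of the first Igf1 probe, which show how closely 1 array repeats itself. The coefficient of variation among the copies was 1.47–5.64% within an array (median, 2.455%), and no copy was left out. Because the copies share 1 RNA sample, they were averaged and count as 1 value per mouse.

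The adjusted p of Igf1 lay close to the threshold. Its log2 difference was between -0.68 and -0.57 when each array was left out in turn, with unadjusted p from 0.000241 to 0.00172, but the adjusted p was 0.0541–0.119, so that the call was lost in all 8 of these fits. Without scaling between arrays, Gen array 3 read 14560, the groups overlapped and the difference was -0.37 (exact permutation p = 0.229; limma adjusted p = 0.593), while the median over all probes stood at 0.26. The stroma and fibroblast markers, measured on the same arrays, did not separate the groups: 4 of 7 had a higher mean in Gen-treated mice, their median log2 difference was 0.01, and their sum was 722000–950000 in controls and 682000–1010000 in Gen-treated mice. When the arrays were scaled on these 7 markers instead, the Igf1 groups still did not overlap and the difference was -0.65 (adjusted p = 0.261). Smooth muscle markers were lower in mean signal in 7 of 7 genes, with a median log2 difference of -0.29 and sums of 1060000–1420000 and 876000–1180000. In whole tissue, fewer cells that make Igf1 and less Igf1 mRNA per cell cannot be told apart. Without Gen arrays 1 and 2, which had the highest ovarian marker sums (142300 and 131500), the Igf1 difference was -0.55 (limma adjusted p = 0.186). The part of the marker shifts in the Igf1 difference was not tested.

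**Figure D1:**
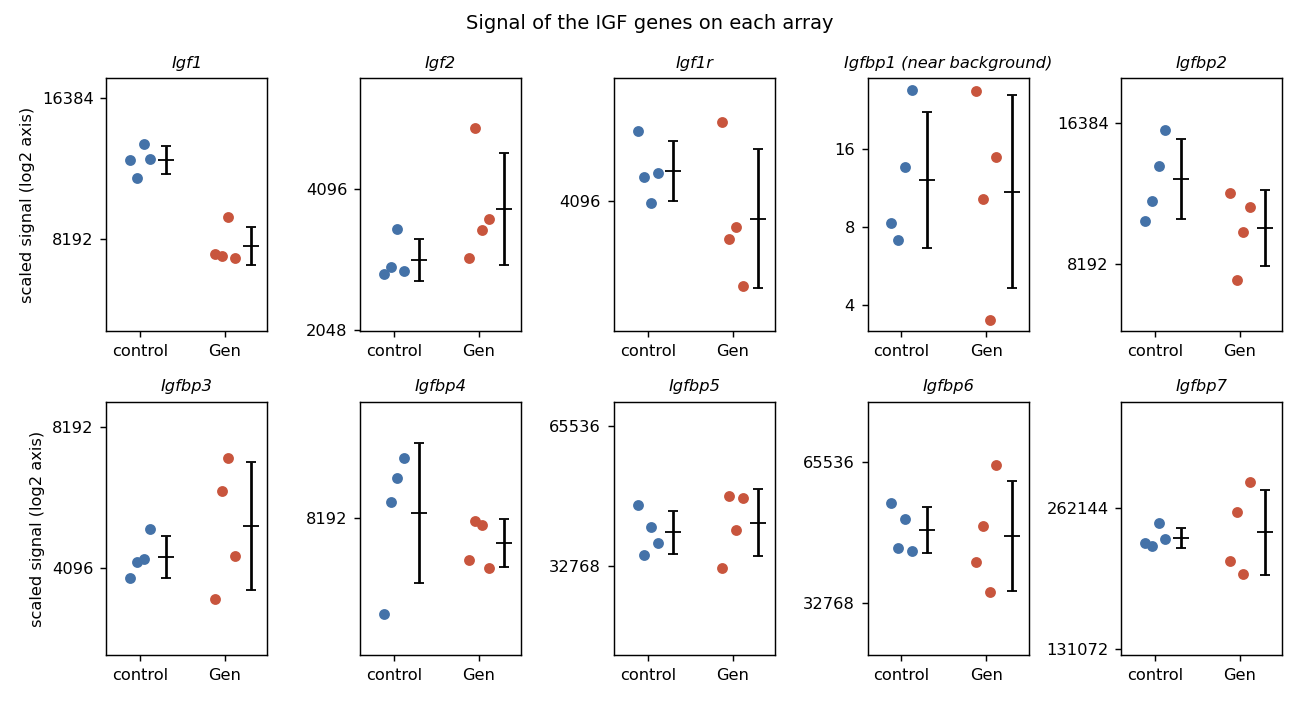
Scaled signal (log2 axis) of the brightest probe of each of the 10 IGF genes on the 4 control and 4 Gen arrays. Points are single arrays, the black mark is the log2 mean and the bar is 1 SD on the log2 scale. Each panel has its own axis. In Igf1 alone all Gen points lie below all control points, and Igfbp1 was near background.

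Igf2, the fetal growth factor of the family, was measured by 2 probes on chromosome 7. The brighter, with 10 copies on each array, read 2698, 2792, 3363 and 2729 in controls and 2921, 5530, 3341 and 3536 in Gen-treated mice. Gen array 2 was far above the others, and the Gen arrays 1 and 3 lay within the control range. The log2 difference was 0.37 (SE, 0.20; 95% interval, -0.08 to 0.81), which did not pass the test (p = 0.0966; adjusted p = 0.343; exact permutation p = 0.0857). The second probe read 660.0, 636.3, 766.1 and 591.8 in controls and 749.9, 1268, 794.1 and 955.4 in Gen-treated mice. Here 3 of the 4 Gen arrays were above every control, and the log2 difference was 0.48 (SE, 0.18; 95% interval, 0.08 to 0.88; p = 0.0249; adjusted p = 0.194; exact permutation p = 0.0571). The 2 probes followed each other with r = 0.96 after the group means were removed, as in all such values below. Gen array 2, with the highest Igf2 signal on both probes, also had the highest oocyte and embryo marker sum (26300) and an ovarian marker sum of 131500. Gen array 1 had the highest ovarian marker sum (142300) and an oocyte and embryo sum of 8099. On both probes its Igf2 signal was nevertheless the lowest of the Gen arrays. Without Gen array 2 the log2 difference of the brighter probe was 0.18 (limma adjusted p = 0.47). Without Gen array 1 it was 0.48 (adjusted p = 0.264), and without both arrays it was 0.25 (adjusted p = 0.385). The part of ovarian or oocyte RNA in the Igf2 signal was not tested.

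**Figure D2:**
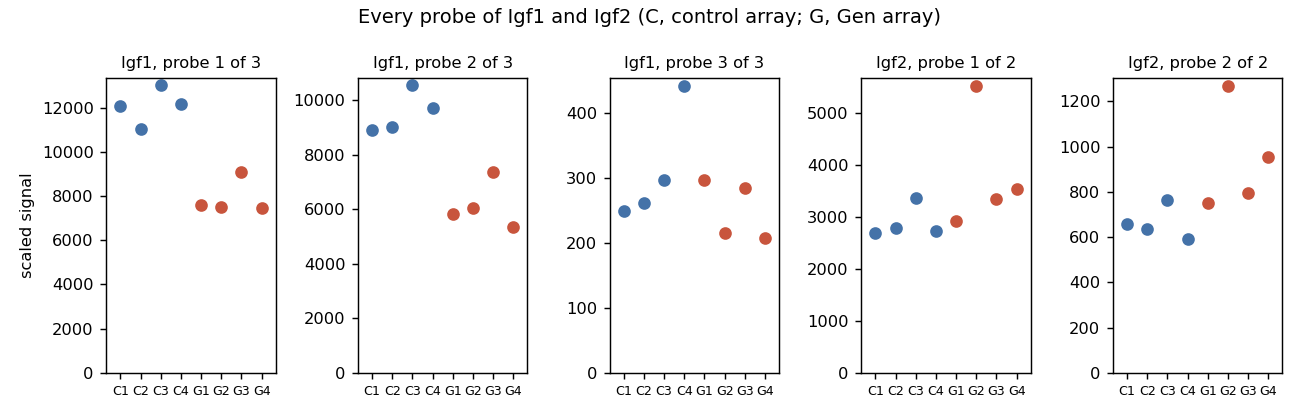
Scaled signal of the 3 Igf1 probes and the 2 Igf2 probes on each array; the vertical axes start at 0, blue points are control arrays C1 to C4 and red points Gen arrays G1 to G4. The first 2 Igf1 probes separate the groups, the last does not, and both Igf2 probes are highest on G2.

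**Figure D3:**
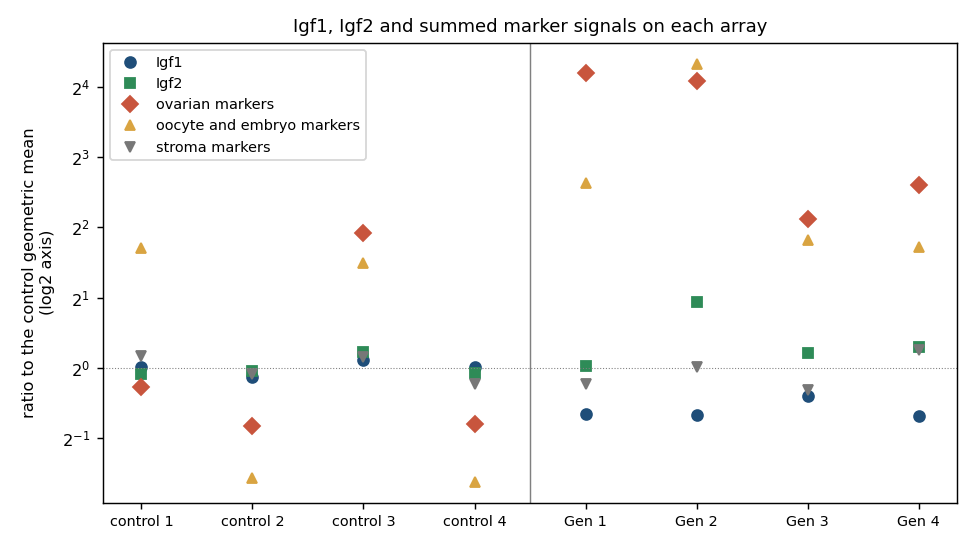
Igf1, Igf2 and the summed signals of the ovarian, oocyte and embryo, and stroma marker lists on each array, as a ratio to the geometric mean of the 4 controls (log2 axis). Igf1 is below the control mean on all 4 Gen arrays, Igf2 is highest on Gen 2, the stroma sum lies near the control mean, and the ovarian sum is above it on every Gen array and on control 3.

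Igf1r encodes the receptor through which both ligands act. Its brighter probe read 5787, 4616, 4051 and 4702 in controls and 6057, 3394, 3600 and 2693 in Gen-treated mice. Gen arrays 2, 3 and 4 were below every control and Gen array 1 was above every control. The log2 difference was -0.34 (SE, 0.24; 95% interval, -0.89 to 0.21; adjusted p = 0.466). When each array was left out in turn it ran from -0.57 without Gen array 1 (adjusted p = 0.157) to -0.18 without Gen array 4 (adjusted p = 0.734), so the value depended on single mice in both directions. The other Igf1r probe, designed on a cDNA clone, read 132.6, 140.9, 141.7 and 258.1 in controls and 258.6, 159.8, 173.4 and 171.0 in Gen-treated mice. Its difference had the opposite sign (0.21; SE, 0.25; adjusted p = 0.661), and the 2 probes correlated with r = 0.43. A further pair of probes, which carry the Igf1r name through their accession but not in the array files, had differences of -0.05 and 0.06 (adjusted p = 0.862 and 0.812). The 4 probes thus gave no common direction.

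Igfbp2 encodes a major binding protein of serum and reproductive fluids. Its scaled signal was 10130, 11190, 13290 and 15880 in controls and 11600, 7566, 9583 and 10860 in Gen-treated mice. Gen arrays 2 and 3 were below every control and the others overlapped. The log2 difference was -0.35 (SE, 0.18; 95% interval, -0.77 to 0.07) and did not pass the test (p = 0.0932; adjusted p = 0.337; exact permutation p = 0.143). It was -0.22 without Gen array 2 and -0.23 without control array 4.

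Igfbp3 encodes the chief carrier of IGFs in blood, where it forms a complex with the acid-labile subunit. It read 3888, 4207, 4276 and 4969 in controls and 3504, 5974, 7059 and 4338 in Gen-treated mice, so that the Gen arrays lay on both sides of the controls. The log2 difference was 0.22 (SE, 0.22; 95% interval, -0.27 to 0.71; adjusted p = 0.596), and it was 0.06 without Gen array 3 and 0.39 without Gen array 1. The coding probe printed above was dim and had group means of 164.5 and 163.5 (log2 difference, -0.01; SE, 0.21), and it followed the brighter probe with r = 0.76.

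Igfbp4 encodes a binding protein that restrains IGFs until PAPP-A cuts it. It read 5116, 8855, 9998 and 11040 in controls and 6680, 8091, 7940 and 6423 in Gen-treated mice. Control array 1 was the lowest of all 8, and every Gen array was below the other controls. The log2 difference was -0.21 (SE, 0.23; 95% interval, -0.75 to 0.32; adjusted p = 0.638), and it ran from -0.45 without control array 1 (adjusted p = 0.124) to -0.08 without control array 4 (adjusted p = 0.884); without control array 3 it was -0.13. The coding probe gave -0.22 and followed the first with r = 0.96.

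Igfbp5, Igfbp6 and Igfbp7 showed the smallest mean differences of the tested members, each by its brightest probe. IGFBP5 binds to extracellular matrix, IGFBP6 prefers IGF2, and IGFBP7 is a related secreted protein that binds IGFs weakly. The log2 difference of Igfbp5 was 0.07 (95% interval, -0.26 to 0.39), with control signals of 34710–44370 and Gen signals of 32560–46300. That of Igfbp6 was -0.04 (95% interval, -0.49 to 0.40), with 42250–53670 and 34480–64640. That of Igfbp7 was 0.04 (95% interval, -0.31 to 0.39), with 217000–243100 and 189200–298200. In each of the 3 the Gen range held the whole control range, and none passed the test (adjusted p = 0.820, 0.918 and 0.902). The intervals do not exclude changes of up to the sizes they span. The second Igfbp5 probe gave 0.03 and correlated with the first at r = 0.83.

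Igfbp1, known for its high expression in liver and decidua, was the member not tested. Its signal was 8.329, 7.113, 13.61 and 27.12 in controls and 26.98, 10.3, 3.513 and 14.9 in Gen-treated mice. Only Gen array 1 of the 8 arrays had it well above background, and no fold is given.

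**Figure D4:**
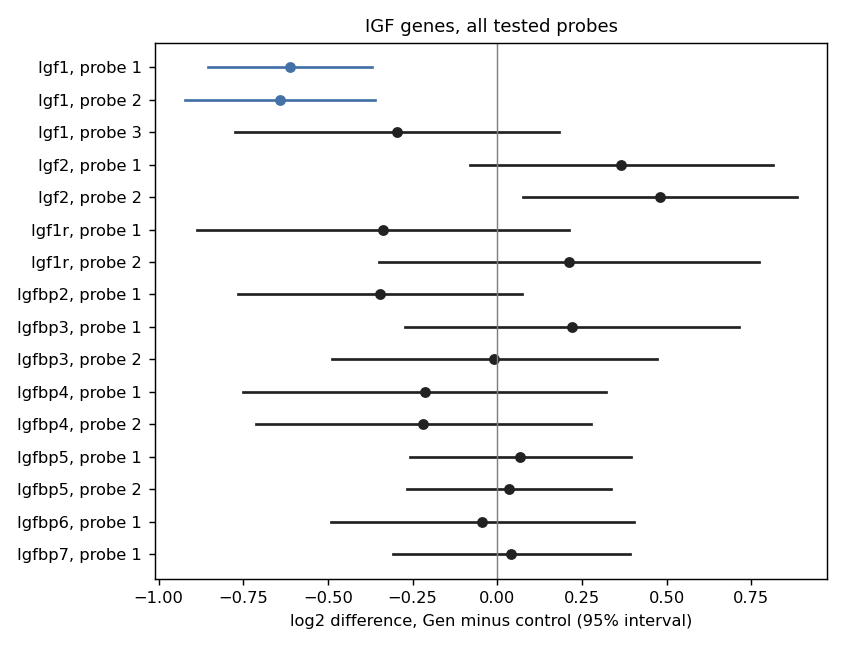
Log2 difference between Gen-treated and control mice (dots) with its 95% interval from the limma fit (lines) for each of the 16 tested probes of the 9 tested IGF genes. Blue marks the 2 Igf1 probes whose groups did not overlap; the intervals of both Igf1r probes and of every binding protein probe include 0.

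The members were also compared array by array, after the mean of each group was removed. Igfbp6 and Igfbp7 varied together most closely (r = 0.90 over 8 arrays), and Igfbp5 went with both (0.70 and 0.66). Igf1r ran against Igfbp7 (-0.68), and Igf1 and Igf2 had r = -0.07. The probes of these genes share array, scaling and cell mixture, and the values are given as a description. Among 22261 other named probes well above background on all arrays, the patterns most like that of Igf1 were those of Dcaf8 (r = 0.976), Nt5c3 (0.966) and Hikeshi (0.944). For Igf2 they included Dennd5a (0.984) and Tub (0.984), and for Igf1r they were Golgb1 (0.976), Ciart (0.975) and Slc27a2 (0.972). These are the highest values among many probes over 8 arrays, and no test was made of them.

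A list of 39 other genes of the pathway was followed beside the family, of which 38 had a probe and 31 were tested. None was called at an adjusted p under 0.05 in either direction, 4 had an unadjusted p under 0.05 (19.4% of all probes tested did), and 1 was at p under 0.01, in the higher direction (background, 3.99% higher). The median log2 difference was -0.02, within a range of -0.55 to 0.79. The gene at p under 0.01 was Ccn2, which encodes connective tissue growth factor, a matrix-associated protein with an IGFBP-like domain. Its signal was 20640, 23220, 23720 and 23810 in controls and 33490, 35560, 35430 and 55300 in Gen-treated mice. All Gen arrays were above all controls, with a log2 difference of 0.78 (SE, 0.17; 95% interval, 0.40 to 1.16; limma p = 0.00142; adjusted p = 0.069; exact permutation p = 0.0286). Over 13 other settings its adjusted p ran from 0.0242 to 0.146 and was under 0.05 in 4, and it was 0.0755–0.155 when each array was left out in turn.

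The other receptors gave no call. Igf2r, the receptor that clears IGF2, had group means of 15310 and 16050 in control and Gen-treated mice (log2 difference, 0.07; 95% interval, -0.31 to 0.45; adjusted p = 0.848). Insr, the insulin receptor, had means of 1461 and 1803 (0.30; 95% interval, -0.05 to 0.65; adjusted p = 0.316), and its other tested probe had the opposite sign (-0.15). Among the genes that regulate the binding proteins, Pappa, the protease named above, had means of 1211 and 1207 (-0.01; 95% interval, -0.46 to 0.45; adjusted p = 0.991). Igfals, the acid-labile subunit of the serum complex, was too close to background to be tested (means, 38.81 and 25.86). Stc1, which encodes stanniocalcin-1, an inhibitor of PAPP-A, was 1081 in controls and 738.4 in Gen-treated mice, with a log2 difference of -0.55 (adjusted p = 0.149; exact permutation p = 0.0571). Stc2, its relative and likewise an inhibitor of PAPP-A, had the opposite sign, with means of 9645 and 16730 and a log2 difference of 0.79 (95% interval, -0.12 to 1.71; adjusted p = 0.316). Both are named because of their values, as are Grb14, an adaptor that inhibits the insulin receptor (0.53; adjusted p = 0.151), and Ccn1, a relative of Ccn2 (0.74; adjusted p = 0.168).

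Downstream of the receptor, Irs1, the first adaptor, had means of 24470 and 22350 (-0.13; 95% interval, -0.43 to 0.17; adjusted p = 0.601), and its other probe gave -0.47. Irs2 had no probe under its name and was not analysed here. The kinase genes Akt1 and Akt2 had log2 differences of -0.07 and -0.30 (adjusted p = 0.760 and 0.318), with another probe of each on the other side of 0 (0.13 and 0.04). The groups did not overlap for 2 of the 31 tested pathway genes, both higher, beside 12.5% of all probes tested (6.02% higher). Besides Ccn2, the other was Foxo1, a transcription factor that AKT keeps out of the nucleus. It read 12220–13830 in controls and 13880–16320 in Gen-treated mice, a log2 difference of 0.21 (95% interval, -0.01 to 0.43; adjusted p = 0.273).

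**Figure D5:**
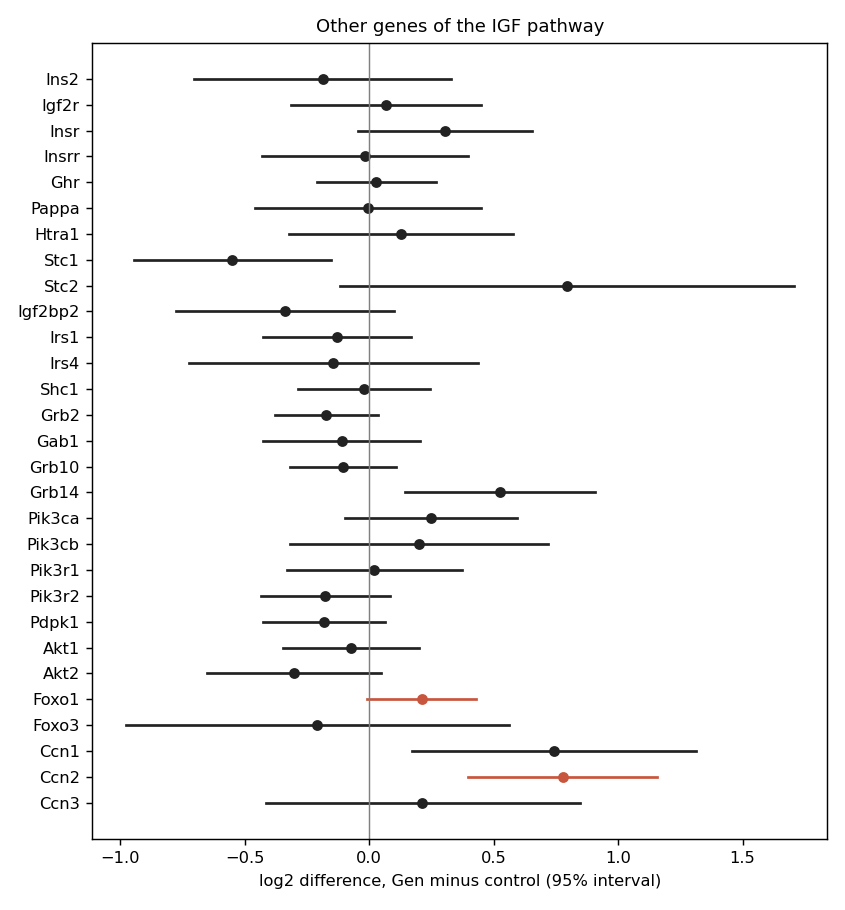
Log2 difference between Gen-treated and control mice (dots) with its 95% interval (lines) for 29 of the 31 tested genes of the IGF pathway list. Red marks Ccn2 and Foxo1, whose Gen arrays were all above all controls, as was the case for 6.02% of all probes tested. None of the 31 was called at an adjusted p under 0.05.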

How the data were processed

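Oviduct RNA of the 8 replicates was labeled with Cy3 and hybridized to 1-color Agilent Whole Mouse Genome arrays. Per array, the authors deposited scanner output from Agilent Feature Extraction (version 9.5), whose processed signal, used here, is a linear intensity after background adjustment and detrending within the array, not scaled between arrays. The deposited series table held the same intensity values in all 45018 spots, to a relative tolerance of 1e-06. Rosetta Resolver, a later step of the methods, was not applied.

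The 1639 control spots and outlier spots were left out, spots of a probe were averaged on the log2 scale, and arrays were brought to a common 75th percentile, the mean over the 8. Probes that failed to stand well above background in every mouse of 1 group or the other were not tested, since dim probes were lower as a class on the Gen arrays. Without this filter 6674 of 41173 probes (16.2%) were called, of which 5782 were lower. Groups were compared with limma 3.58.1 (lmFit, eBayes) in R 4.3.3 with data.table (version 1.17.8), with Benjamini-Hochberg adjustment over 28966 probes, and by exact 2-sided permutation of single values. The brightest probe by mean log2 signal stands for a gene. Plots were drawn with matplotlib 3.10.9. Gene names beyond those in the files came from a GRCm38.p6 table by accession (22951 probes) or name and synonym (9768), and 8455 probes kept the file's name. No mm7 genome was used, so exon and UTR positions are left out, and only probes taken to be coding, whose frame was checked to hold no stop codon, are printed. The number of arrays limits the precision.

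In simulated data with 200 changed among 28915 probes, 154 were recovered, 66% of the 2-fold and 88% of the 4-fold changes, and 14 unchanged probes were called. The simulation drew independent noise for each probe and held no smaller changes. It therefore does not give the recovery of changes such as that of Igf1 (1.53-fold).

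The members, the pathway and marker lists and the tests were chosen with earlier results of these data known. Named were all members, pathway genes with p under 0.01 and 6 pathway genes chosen for their roles, and the 3 nearest patterns of Igf1, Igf2 and Igf1r. Akt1 and Akt2 were also named for their roles, and Stc1, Stc2, Grb14, Ccn1 and Foxo1 after their values were seen. Results for some genes of these sets are not reported here. The alternatives were other normalizations, background correction, filters and probe rules, a replicate block, each array left out and the methods' t-test. Scaling on stroma markers and leaving out the 2 Gen arrays highest in ovarian markers were added after the data were seen.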

Additional observations from a re-analysis of the deposited data

Results flagged for a closer look

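In 4 of 34 groups of 4 arrays checked over the 17 probes, 1 array stood apart by Dixon's criterion (its gap to the nearest array over the whole range of the group); chance gives about 1 group in 20. For the brightest Igf1 probe, Gen array 3 was above the other Gen arrays, with a ratio of 0.9. For the brighter Igf2 probe, control array 3 was above the other controls (0.846). For the dim Igf1r probe, control array 4 was above the other controls (0.9) and Gen array 1 above the other Gen arrays (0.83). None of these arrays was removed from the results.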

How the results depend on the processing

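The precision of every value here was limited by 4 mice per group. The number of members called, 1 (Igf1), became 0 with quantile normalization, without scaling, with a gene's probes averaged, with the methods' t-test, with the stroma scaling, without the 2 Gen arrays highest in ovarian markers and in the fits without 1 array (range, 0 to 0). The adjusted p of Igf1 in the first 6 of these was 0.0544, 0.593, 0.0847, 0.0804, 0.261 and 0.186, and over all 13 settings other than leaving out 1 array it ran from 0.0236 to 0.593, under 0.05 in 6. Of the fits under 0.05, that on the series table held the same values as the main fit and had to repeat its 0.0425. The 0.0236 came from the fit without the filter on dim probes. The unadjusted p of the methods' t-test for Igf1 was 0.000364. The number of members at p under 0.01 was 0 without scaling and 0 with the stroma scaling, and 1 to 2 when an array was left out; the number whose groups did not overlap was 0 without scaling. Without scaling, 1174 probes were called higher and 148 lower, against 175 and 146 with it, and the median over all probes was 0.26. The stroma scaling gave 109 calls, and the cause was not tested for any of these shifts.

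For the pathway list, the count at p under 0.01 was 1, and it was 2 with the trended robust fit, the mean of probes, quantile normalization or stroma scaling, 3 without scaling or with normexp, and 1 to 4 when an array was left out. The count called was 0, and it was 1 with the trended robust fit, no filter, no scaling or normexp. Of the 80 marker genes tested, 1 was called, against 18 without scaling, 4 with normexp, 0 with stroma scaling, 0 without the 2 Gen arrays and 0 to 2 when 1 array was left out.

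Small differences changed sign without scaling in Igfbp4 (0.03), Igfbp6 (0.20), Irs1 (0.11) and Pappa (0.24), with normexp in Igf2r (-0.02) and Igfbp5 (a value that rounds to 0), and in Igfbp6 with quantile normalization (0.02) and without the 2 Gen arrays (0.01). When 1 array was left out, the ranges that crossed 0 were -0.07 to 0.16 in Igf2r, -0.21 to 0.09 in Igfbp6, -0.08 to 0.14 in Igfbp7 and -0.16 to 0.14 in Pappa. None of these 7 genes was called in any setting.

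The labels do not say whether same-numbered mice were paired, and the study describes its controls as littermates of Gen-treated mice. The deviations of same-numbered arrays from their group means correlated at -0.08, 0.11, -0.02 and -0.18. These values cannot exclude a pairing, because arrays of different numbers were not set beside them. With the replicate block, the number of members called was 0, the adjusted p of Igf1 was 0.129 and 3 probes in all were called.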
